A study of Mus musculus with 6 samples.

Results

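The motile cilium axoneme genes described here are rows of the deposited expression table chosen by gene name. A row was taken when one of its gene symbols began as an axonemal dynein heavy chain (Dnah), an axonemal dynein intermediate chain (Dnai or Dnaic), an assembly factor (Dnaaf), a radial spoke head gene (Rsph), a cilia and flagella associated gene (Cfap), a sperm associated antigen (Spag), a tektin (Tekt), or as Dynlrb2 or Foxj1. This gave 78 of 44519 rows, with 68 gene symbols on 17 chromosomes. The name pattern also took 8 rows of Spag genes that are not known as axoneme parts (Spag4, Spag5, Spag7, Spag9, Spag11a and Spag11b), and these are described apart. A symbol had several rows in 8 cases, 5 rows were merged with another gene, and 36 rows had exons that overlap another gene in GENCODE M21 (GRCm38).

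A motile cilium beats because dynein motors slide the microtubule doublets of its core, the axoneme, against each other. Outer dynein arms give power and inner arms shape the stroke, radial spokes and the central pair of microtubules time the arms, and proteins on the inner wall of the doublets stiffen them. The arms are put together in the cytoplasm by assembly factors before transport into the cilium. In the nose, multiciliated respiratory cells carry motile cilia, whereas the cilia of olfactory sensory neurons hold the odorant detection machinery. FOXJ1 and RFX transcription factors are known to drive genes of motile cilia.

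RNA was sequenced in bulk from GFP-positive mouse cells that are labelled as horizontal basal stem cells, the quiescent stem cells of the olfactory neuroepithelium, and were isolated from it by sorting. Controls were Krt17-EGFP mice without doxycycline (replicates 1, 2 and 4), and the TNF group was Krt17-EGFP; Cyp2g1-rtTA; TRE-TNF mice on doxycycline for 6 weeks (replicates 1, 3 and 4). All 6 libraries share the keratin 17 reporter used for the sort. In the TNF mice the Cyp2g1 promoter, active in sustentacular (supporting) cells, drives the doxycycline-dependent activator of the TNF transgene. The sources used here do not give the ages of the mice. Genotype, transgenes and doxycycline differ together, so their parts cannot be told apart. The labels do not say whether each RNA sample came from a separate mouse, so p-values measure the spread between these samples, which may be technical. The comparison asks how RNA levels in the sorted samples differed between the TNF group and the controls.

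Values are FPKM, sequenced fragments normalised to transcript length and library size, with sums of 688190 to 838417 per library, and the read depth is unknown. The transgene target Tnf stood at 7.63, 28.0 and 7.58 FPKM in the controls and 142, 91.9 and 102 FPKM in the TNF libraries. The basal cell markers were present in every library. Krt5, a basal keratin, measured 151 to 344 FPKM in controls and 402 to 1011 FPKM in TNF libraries, and Trp63, which maintains basal cells, measured 68.6 to 86.1 and 79.7 to 117 FPKM. The controls also held RNA of mature neurons, since the row of Omp, merged with Capn5, stood at 671 to 1323 FPKM there and at 259, 9.74 and 8.37 FPKM in the TNF libraries. Control replicate 4 and TNF replicate 1 had the lowest mean correlation with their own group (0.926 and 0.911). In such bulk samples, fewer cells of a type and less RNA per cell cannot be told apart.

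The promoters of these genes are shown because RFX and forkhead factors bind short DNA words that can be read from the sequence. RefSeq windows (GRCm38.p6) of 300 bases, from 250 before to 50 after the start site, matched 54 of the 68 symbols. No window was matched for Foxj1, Rsph1, Rsph4a, Rsph10b, Dnaaf1, Dnah3, Cfap53, Cfap54, Cfap97, Spag1, Spag11a, Spag11b, Dnah2os and Spag17os. The word GTTGCC, the core of an RFX half-site, was searched on both strands and lay in 21 of 54 member windows (38.9%). It lay in 3821 of 27025 genes with a window (14.1%). Among the members called lower in the TNF libraries it lay in 11 of 21 windows (52.4%), and among those called higher in 0 of 3. These shares were not tested, and a match is a description of letters, not of a bound site.

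Stretches around the half-site in promoters of 6 members that fell are printed 5′ to 3′ on the strand of the gene, with each GTTGCC or its reverse complement in capitals. Positions are counted from the first transcribed base of RefSeq as 0. They lie at chr11:72361882-72361947, minus strand (Tekt1, an intron of that gene in GENCODE M21, with the centred match at -35), chr4:126325749-126325814, minus strand (Tekt2, -96), chr16:44394640-44394705, plus strand (Cfap44, -129), chr8:95434928-95434993, minus strand (Cfap20, -94), chr1:69826829-69826894, plus strand (Spag16, -111) and chr1:53706949-53707014, minus strand (Dnah7a, -200). Apart from that of Tekt1, these stretches lie outside GENCODE genes.
Tekt1: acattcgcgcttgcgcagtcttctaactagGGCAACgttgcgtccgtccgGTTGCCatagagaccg
Tekt2: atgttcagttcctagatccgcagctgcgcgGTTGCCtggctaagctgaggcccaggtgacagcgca
Cfap44: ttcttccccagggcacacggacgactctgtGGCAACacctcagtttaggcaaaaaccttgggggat
Cfap20: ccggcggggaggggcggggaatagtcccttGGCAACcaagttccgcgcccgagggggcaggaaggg
Spag16: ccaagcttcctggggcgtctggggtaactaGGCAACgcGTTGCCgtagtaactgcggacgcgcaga
Dnah7a: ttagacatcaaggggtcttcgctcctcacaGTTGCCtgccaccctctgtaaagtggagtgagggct

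The windows of Tekt1 and Spag16 held a pair of half-sites in opposite orientation within one stretch. The promoter of Dynlrb2 also held the word, at position -51. Tekt2 and Cfap44 each held a further match nearer the start site, at -22 and -19, which is not printed. The word was not limited to members that fell, since Dnaaf2, Dnaaf5, Dnaic2 and Rsph3b, which were not called, held it too. A strict form of the paired RFX site (X-box), GTTNCC and GGNAAC with 0 to 3 bases between, was in 0 of 54 member windows and in 0.936% of all genes. This pattern allowed only G as the first base of GGNAAC and only C as the last base of GTTNCC. In the windows of Tekt2 (-22), Cfap44 (-19), Dnaic2 (-26) and Rsph3b (16), GTTGCT stood shortly before GGCAAC, and the pattern missed these pairs. At its -51 site the Dynlrb2 promoter reads GTTGCCtagcaac, where AGCAAC follows GTTGCC after the base T, and the pattern missed it. Looser forms of the X-box were not counted, so their absence from member windows cannot be concluded. The forkhead word GTAAACA, on either strand, was in 4 of 54 member windows (7.4%) and 4.05% of all genes. These were Cfap20, Cfap43, Dnah17 and Tekt3. Cfap43 is shown because it is the only one of the 3 called-higher members with a window to hold that word. Its stretch lies at chr19:47837380-47837446, minus strand, with the match, in capitals, at -55.
Cfap43: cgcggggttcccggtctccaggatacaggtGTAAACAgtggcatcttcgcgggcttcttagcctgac

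Many of the expressed motile cilium genes were lower in the TNF libraries, while the gene of their regulator, Foxj1, was higher. Each part of the axoneme held a row called lower. Outer and inner arm heavy chains each had 1 of 2 tested rows lower. Arm assembly factors had 1 of 5 lower and 1 higher, a merged row. Such small counts cannot tell the parts apart, and differences between parts were not tested. Of the 78 rows, 49 reached 1 FPKM in at least 3 libraries and were tested. In the TNF libraries 26 of the 49 fell, 4 rose and 19 were not called (limma, adjusted p below 0.05 over 15037 rows). Over all rows tested, 38.0% were called, 27.2% lower and 10.9% higher. The median log2 change of the tested members was -1.05, against -0.22 over all tested rows. Its sign held under each scaling tried. The members' median was -0.60 with quantile normalization, where the median of all tested rows was 0.05. It was -2.08 with basal cell marker scaling, where the median of all tested rows was -1.48 and 97.5% of calls were lower. The negative sign under that last scaling therefore says little about the members. Over all 78 member rows the median was -0.25, and over all rows of the table above 0 in any library it was -0.08. Of the falls, 12 were at least 4-fold on the log2(FPKM + 1) scale, a size that 8.58% of all tested rows reached with a call.

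Low rows can be described only by whether the groups overlapped. Of the 72 member rows above 0 in any library, the TNF libraries lay all below the controls in 36, all above in 8, and overlapped them in 28. Over all such rows, 28.8% lay all below and 11.2% all above. The 29 untested members included 6 rows at 0 in every library (Rsph6a, Spag11a, Spag11b, a row of Spag9 and 2 rows of Dnah14). Among the 26 tested rows that were neither merged nor overlapped by another gene's exons, 17 fell and 1, Foxj1, rose.

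**Figure D1:**
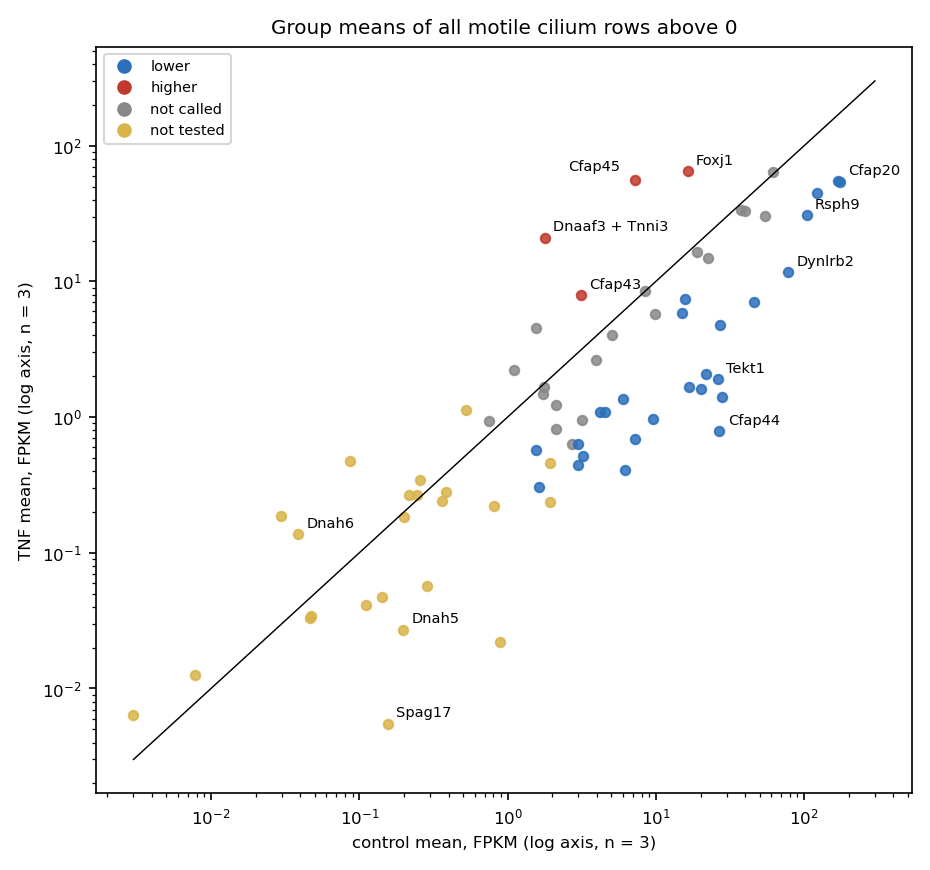
Mean FPKM in the TNF group (vertical, log axis) against the control group (horizontal, log axis) for the 72 member rows above 0, 1 point per row, n = 3 libraries per group, with the line of equal means and a mean of 0 drawn at 0.003. Most rows above 1 FPKM lie below the line, and the 4 called-higher rows (red) stand above it.

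Foxj1 encodes the forkhead transcription factor that switches on motile cilium genes. Its expressed row (chr11:116330704-116335399, minus strand) stood at 11.7, 12.4 and 25.2 FPKM in controls and at 81.4, 62.0 and 50.9 FPKM in TNF libraries. The lowest TNF library was above the highest control, so the groups did not overlap. The means were 16.4 ± 7.64 and 64.8 ± 15.4 FPKM (SD, n = 3). On the log2 scale the difference was 1.98 ± 0.33 (SE, adjusted p = 0.00416). The rise was not called, at 0.59 with an adjusted p of 0.400, when libraries were scaled to horizontal basal cell markers, a scaling that moved the median of all rows to -1.48. A second Foxj1 row at the same locus stayed at or below 0.326 FPKM and was not tested.

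Axonemal dynein heavy chains are the very long motor subunits. Of their 18 rows, 4 were tested, and the other 14 did not exceed 0.813 FPKM in any library. Dnah7a, an inner arm heavy chain, measured 18.3, 9.19 and 22.9 FPKM in controls and 1.41, 1.61 and 1.98 FPKM in TNF libraries, and fell by 2.65 on the log2 scale (SE 0.34, adjusted p = 0.00169). Its near-identical copies Dnah7b and Dnah7c were below 1 FPKM, and counting could have split reads among the 3, so these values are uncertain. Dnah9, an outer arm heavy chain, measured 2.36, 2.25 and 4.37 FPKM against 0.557, 0.771 and 0.560 FPKM (log2 change -1.26, SE 0.24, adjusted p = 0.00740), and its exons overlap Gm12296. Quantile normalization ended the call of Dnah9 (-0.60, adjusted p = 0.110). The groups did not overlap for Dnah7a or Dnah9. Gm12296, on the other strand from Dnah9, measured 5.73, 5.64 and 11.8 FPKM in controls and 0.952, 1.27 and 0.952 FPKM in TNF libraries. Its reads cannot be told apart from those of Dnah9.

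Dnah2, an inner arm chain whose exons overlap Dnah2os, measured 1.68, 2.93 and 4.98 FPKM in controls and 1.68, 0.497 and 0.681 FPKM in TNF libraries, where the groups overlapped (adjusted p = 0.0562, and 0.0273 without TNF replicate 1). Dnah11, an outer arm chain, had means of 1.75 and 1.67 FPKM and was not called. The main outer arm chain of airway cilia, Dnah5, was listed at 0.102 to 0.285 FPKM in controls and 0.0246 to 0.0296 FPKM in TNF libraries, and was too low to test. Dnah8, Dnah17, Dnah1 and the highest row of Dnah14 had group means of 0.184 to 0.387 FPKM, with overlapping groups. Dnah6 was the one heavy chain row with every TNF library above the controls, at 0.0545 to 0.208 against 0.0231 to 0.0538 FPKM.

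Dynein intermediate and light chains link the motors to the doublet and to each other. Dynlrb2, a roadblock-type light chain known from ciliated cells (chr8:116504996-116515896 in the table), stood at 62.7, 56.3 and 116 FPKM in controls and at 23.4, 6.04 and 5.70 FPKM in TNF libraries. TNF replicate 1 lay between the other TNF libraries and the controls. The log2 change was -2.84 ± 0.55 (SE, adjusted p = 0.00741). Dnaic1, an outer arm intermediate chain, fell from 5.39, 4.28 and 12.1 FPKM to 0.348, 0.672 and 1.07 FPKM (log2 change -2.19, SE 0.38, adjusted p = 0.00480), and its exons overlap Enho. Its partner Dnaic2 measured 4.09 to 5.85 FPKM and 2.99 to 4.93 FPKM, and was not called (adjusted p = 0.422). The difference between the changes of Dnaic1 and Dnaic2 was not tested. Enho, on the other strand from Dnaic1, measured 20.1 to 36.8 FPKM in controls and 15.5 to 19.1 FPKM in TNF libraries.

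Of the 5 tested rows of arm assembly factors, 1 fell and 1 rose. The row of Dnaaf3, merged with the cardiac troponin gene Tnni3, stood at 0.759, 1.57 and 3.0 FPKM in controls and 20.5, 21.3 and 21.0 FPKM in TNF libraries (log2 change 3.06, SE 0.32, adjusted p = 0.000865). The table does not say which of the genes gave the reads. Dnaaf2, a co-chaperone, had means of 9.92 and 5.79 FPKM (adjusted p = 0.10, and 0.0272 without TNF replicate 1), Spag1, another cytoplasmic assembly factor, 3.92 and 2.63 FPKM (adjusted p = 0.139), and Dnaaf5 8.40 and 8.53 FPKM (adjusted p = 0.902). A second row of Spag1, too low to test, had 0.820, 0.965 and 3.99 FPKM in controls and 0.116, 0.311 and 0.280 FPKM in TNF libraries, without overlap. Dnaaf1, named after its values were seen, fell from 2.97 to 0.446 FPKM on average (log2 change -1.41, adjusted p = 0.00919, and 0.108 with quantile normalization).

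Radial spokes, which carry signals from the central pair to the arms, had 6 of 8 tested rows lower and 0 higher (limma, 0 also at an unadjusted p below 0.05). Rsph9, a spoke head protein, fell from 95.6, 70.6 and 146 FPKM to 44.7, 23.2 and 24.2 FPKM (log2 change -1.73, SE 0.35, adjusted p = 0.00895). Rsph1, also of the spoke head, fell from 36.9, 29.95 and 71.0 FPKM to 9.28, 5.72 and 6.18 FPKM (log2 change -2.47, SE 0.35, adjusted p = 0.00233). Rsph14 fell further, from 21.9, 19.5 and 42.4 FPKM to 3.82, a listed 0 and 0.390 FPKM (log2 change -3.86, SE 0.62, adjusted p = 0.00363). The fall of Rsph14 rests on TNF libraries near 0, and TNF replicate 1 held the highest of its TNF values.

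Cfap61, a protein of the spoke base, fell from 15.1, 15.1 and 34.7 FPKM to 2.91, 1.97 and 1.33 FPKM (log2 change -2.81, SE 0.38, adjusted p = 0.00202), and its exons overlap Crnkl1. Crnkl1, on the other strand, measured 21.0 to 26.4 FPKM in controls and 21.8 to 24.0 FPKM in TNF libraries. The spoke stalk genes stayed without a call. Rsph3a had means of 37.4 and 33.4 FPKM and Rsph3b 39.7 and 33.3 FPKM, neither was called (adjusted p = 0.688 and 0.502), and as near-identical copies their values are uncertain. Rsph4a and the merged row of Rsph10b with Pms2, named after their values were seen, fell with log2 changes of -1.57 and -0.99. The call of the Rsph10b row was lost without control replicate 1 (-0.84, adjusted p = 0.0669) and with a replicate block (adjusted p = 0.164).

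The central pair apparatus had 6 of 8 tested rows lower and 0 higher (limma, 0 also at an unadjusted p below 0.05). Cfap70 fell from 19.5, 18.2 and 22.5 FPKM to 1.60, 2.25 and 1.02 FPKM, with tight groups far apart (log2 change -3.03, SE 0.24, adjusted p = 0.000446). Spag6 fell from 15.3, 10.1 and 19.7 FPKM to 5.71, 5.97 and 5.83 FPKM (log2 change -1.18, SE 0.26, adjusted p = 0.0127), a call lost without control replicate 1 (adjusted p = 0.0626) and with a replicate block (adjusted p = 0.0821). The table's Spag6 lies on chromosome 16, where GENCODE names the gene Spag6l, and its Spag6l, on chromosome 2, is the GENCODE Spag6. That second gene did not exceed 0.768 FPKM.

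The merged rows of Cfap69 and Steap2 fell as well, the higher of them from 119, 112 and 136 FPKM to 48.3, 43.8 and 41.4 FPKM (log2 change -1.44, SE 0.15, adjusted p = 0.000895). The lower of these rows fell from a mean of 6.2 to 0.406 FPKM (log2 change -2.36, adjusted p = 0.00449). Cfap74 and Spag16, named after their values were seen, fell by 1.41 and 0.69 on the log2 scale (adjusted p = 0.00209 and 0.0428). The call of Cfap74 was lost with a replicate block (adjusted p = 0.0750). The call of Spag16 was lost without TNF replicate 3 or 4 (adjusted p = 0.154 and 0.135), with median-of-ratios scaling (0.0697), with no filter (0.0771) and with a replicate block (0.218), and its sign turned under quantile normalization, to 0.14. Cfap54, with means of 2.11 and 1.24 FPKM, was called lower without TNF replicate 1 alone (adjusted p = 0.115 with all libraries and 0.0412 without it). Spag17, a central pair protein, was listed at 0.0934 to 0.212 FPKM in controls and at 0.00494 to 0.00610 FPKM in TNF libraries, too low to test.

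Tektins and other proteins of the inner microtubule wall line the doublets from within, and 4 of 8 tested rows fell while 1 rose. Tekt1 (chr11:72344722-72362442) fell from 23.8, 15.7 and 38.7 FPKM to 4.39, 0.424 and 0.918 FPKM (log2 change -3.38, SE 0.56, adjusted p = 0.00404). Tekt2, whose exons overlap Gm12945, fell from 33.6, 16.6 and 31.3 FPKM to 2.70, 5.10 and 6.58 FPKM (log2 change -2.28, SE 0.37, adjusted p = 0.00392). In Tekt1 the first TNF replicate was the highest of the TNF libraries, in Tekt2 the lowest. Gm12945, on the other strand from Tekt2, measured 6.46 to 7.88 FPKM in controls and 0.254 to 2.15 FPKM in TNF libraries. Cfap20, an abundant doublet protein, fell from 166, 125 and 231 FPKM to 63.7, 45.6 and 54.0 FPKM (log2 change -1.63, SE 0.26, adjusted p = 0.00346).

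Cfap126, which is needed for basal body docking, measured 38.6 to 80.8 FPKM in controls and 28.5 to 33.2 FPKM in TNF libraries, without overlap but without a call (log2 change -0.75, adjusted p = 0.0800). Spag8, named after its values were seen, fell with a log2 change of -1.25 (adjusted p = 0.0423), and 9 alternatives lost that call while 4 kept it, the losses including the omission of control replicate 1 or 4 or of any 1 TNF replicate (adjusted p = 0.0613 to 0.132).

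Cfap45, another inner wall protein, went up. It stood at 7.03, 6.18 and 8.34 FPKM in controls and at 61.8, 54.5 and 52.4 FPKM in TNF libraries, with tight groups. The log2 change was 2.81 ± 0.17 (SE, adjusted p = 0.000368). Its locus in the table (chr1:172520801-172563717) runs beyond the GENCODE gene, which ends at 172545870, and its exons overlap 4933439K11Rik on the other strand, a row that measured 1.59 to 3.36 FPKM in the 6 libraries. The partner Cfap53 had 0.659, 1.09 and 1.58 FPKM in controls and 1.79, 2.28 and 2.61 FPKM in TNF libraries, without overlap and without a call (log2 change 0.63, adjusted p = 0.0697). Scaling to horizontal basal cell markers turned the sign of Cfap53, to -0.29.

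Rows of genes for proteins that tether or modify the inner arms split. Cfap44 fell most of all members on the log2 scale, from 25.8, 20.3 and 34.3 FPKM to 1.34, 0.446 and 0.582 FPKM (log2 change -3.96, SE 0.29, adjusted p = 0.000397). Cfap57 fell from 3.36, 2.52 and 3.77 FPKM to 0.919, 0.249 and 0.370 FPKM (log2 change -1.49, SE 0.23, adjusted p = 0.00337). Cfap43, which is known to act with Cfap44 in the tether, rose from 2.24, 2.87 and 4.23 FPKM to 5.58, 9.90 and 8.39 FPKM (log2 change 1.12, SE 0.29, adjusted p = 0.0225). The call of Cfap43 was lost when any of control replicates 1 and 2 or TNF replicates 3 and 4 was left out (adjusted p = 0.0722 to 0.0940) and with a replicate block (adjusted p = 0.280), and its sign turned, to -0.08, with scaling to horizontal basal cell markers.

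The same symbol had a second row, with 2.08, 1.93 and 0.629 FPKM in controls and 0.612, 6.26 and 6.81 FPKM in TNF libraries, where TNF replicate 1 was the lowest of the 6 libraries (adjusted p = 0.319). Without TNF replicate 1 that row was called higher (log2 change 1.62, adjusted p = 0.0104). Exons of Cfap43 overlap Itprip on the same strand, so the reads of both rows cannot be assigned to Cfap43 alone. The difference between the changes of Cfap43 and Cfap44 was not tested.

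Of the 3 tested members with no assigned axoneme role, 2 fell. Cfap36 fell from 173, 128 and 205 FPKM to 61.3, 50.4 and 53.3 FPKM (log2 change -1.58, SE 0.21, adjusted p = 0.00184), and Cfap58 from 9.22, 5.96 and 13.5 FPKM to 2.05, 0.339 and 0.511 FPKM (log2 change -2.46, SE 0.41, adjusted p = 0.00418). Cfap97 had means of 22.6 and 14.8 FPKM, with overlap (adjusted p = 0.207). The antisense rows Dnah2os and Spag17os did not exceed 0.597 FPKM.

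Of the 5 tested rows of Spag genes that are not axoneme parts, 1 fell. Spag4, a nuclear envelope gene, went from 2.06, 1.07 and 1.76 FPKM to 0.217, 0.350 and 0.353 FPKM (log2 change -0.99, adjusted p = 0.00807), a call lost with quantile normalization (-0.16, adjusted p = 0.612) and with a replicate block (adjusted p = 0.0527). The scaffold gene Spag9 had means of 19.0 and 16.5 FPKM (adjusted p = 0.641), the row of Spag7 merged with Camta2 61.3 and 63.6 FPKM (adjusted p = 0.827), and the mitotic spindle gene Spag5 1.72 and 1.48 FPKM (adjusted p = 0.797). For these 3 rows the groups overlapped.

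**Figure D2:**
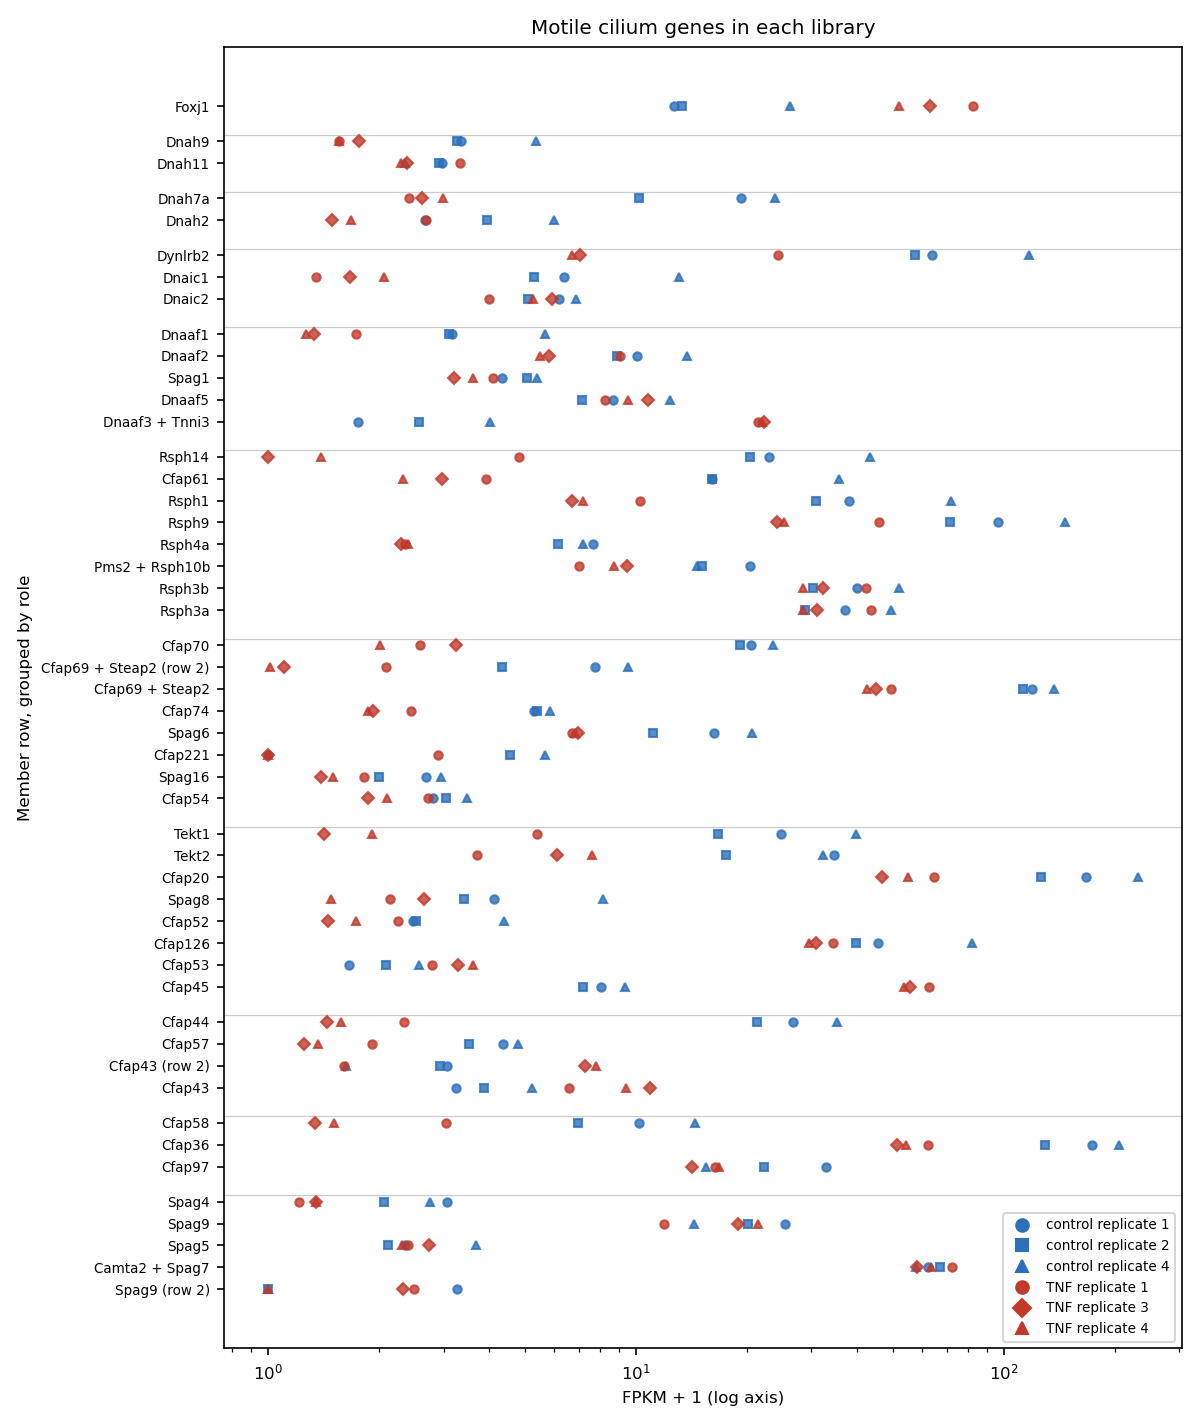
FPKM + 1 (log axis) of the 49 tested member rows in each of the 6 libraries, grouped by role from top to bottom (regulator, outer and inner arm heavy chains, intermediate and light chains, assembly, spokes, central pair, inner wall, tethers, no role, not an axoneme part). Control libraries (blue) lie to the right of TNF libraries (red) in most rows, and to the left for Foxj1, Cfap45, the Dnaaf3 row, the first Cfap43 row and Cfap53, which was not called.

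**Figure D3:**
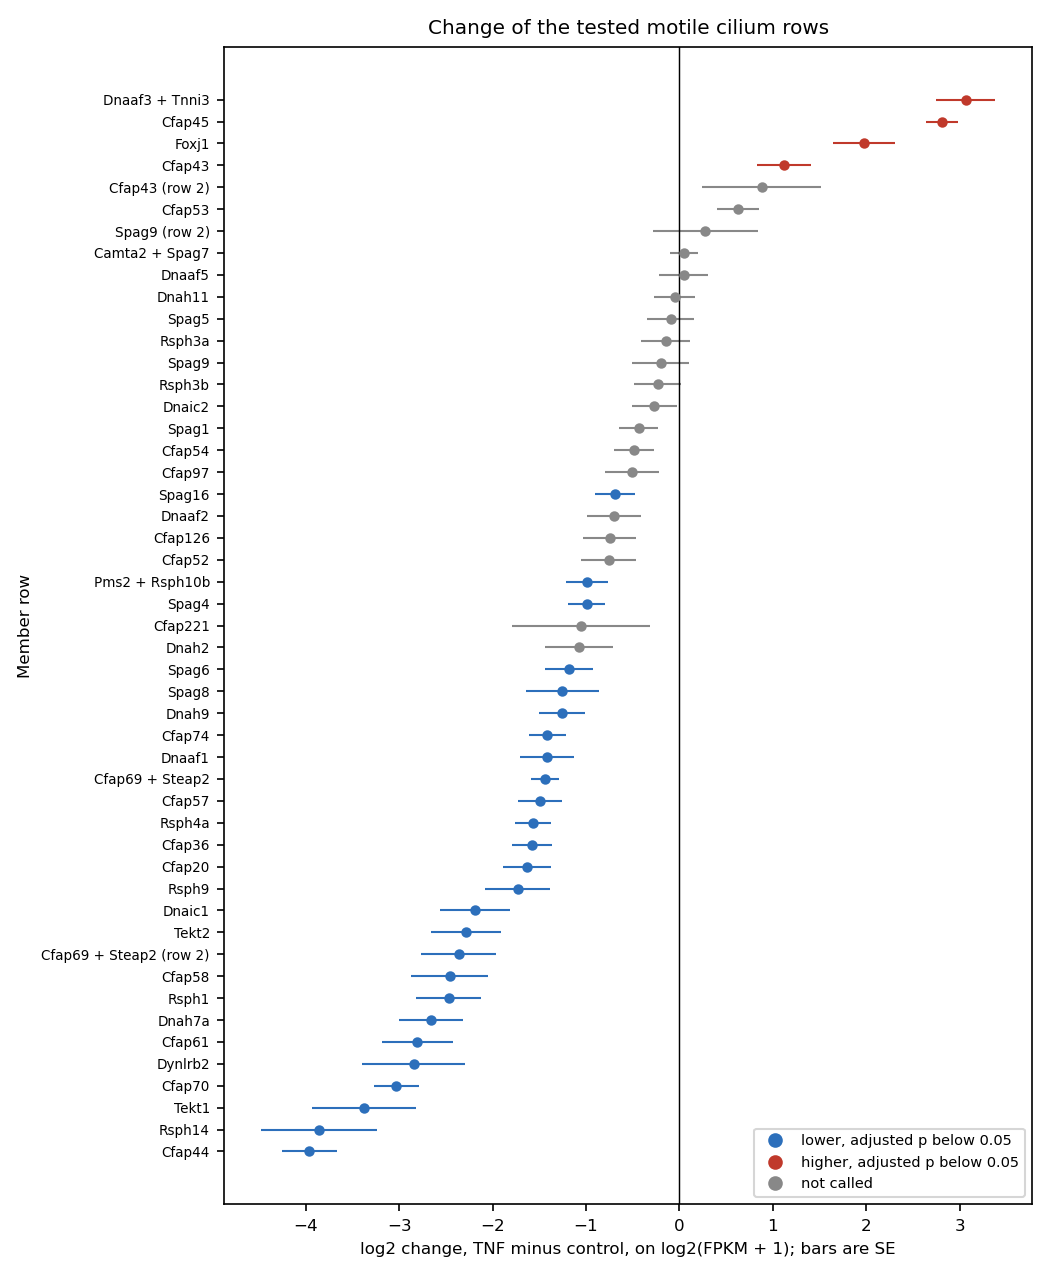
Log2 change (TNF minus control, on log2(FPKM + 1)) of the 49 tested member rows, with bars of 1 SE, in order of size. The 26 rows called lower (blue) span -3.96 to -0.69 and the 4 called higher (red) 1.12 to 3.06.

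The fall was read against other cilium genes, from lists chosen by role. Among the tested members 53.1% fell, and among all tested rows 27.2% fell and 10.9% rose. Of 54 tested rows of other axoneme and arm assembly genes, 35 fell (64.8%) and 2 rose, with a median log2 change of -1.23. Mlf1, a gene of ciliated cells, fell from 391, 226 and 486 FPKM to 63.1, 61.0 and 54.0 FPKM (log2 change -2.54, adjusted p = 0.00117), and the adenylate kinase Ak1 from a mean of 282 to 26.6 FPKM (log2 change -3.50, adjusted p = 0.00537). Tppp3, a tubulin binding protein, rose from 39.5, 51.4 and 39.7 FPKM to 529, 332 and 344 FPKM (log2 change 3.15, adjusted p = 0.000397). The other riser was Efcab1, from a mean of 6.80 to 17.3 FPKM. Hydin, of the central pair, and Wdr66, of the spoke base, both named after their values were seen, fell by 3.81 and 5.67 on the log2 scale. Without control replicate 1, 23 rows of this list were called lower.

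Intraflagellar transport (Ift) and BBSome (Bbs) genes build and load all cilia, sensory ones included. Of 35 tested, 22 fell (62.9%, against 27.2% of all tested rows) and 0 rose (limma, 0 also at an unadjusted p below 0.05), with a median of -1.03. Ift43 fell from 202, 162 and 291 FPKM to 139, 87.9 and 80.3 FPKM (log2 change -1.09, adjusted p = 0.0276), Ift20 from a mean of 141 to 98.4 FPKM (log2 change -0.52, adjusted p = 0.0477), and Ift46 from a mean of 157 to 69.1 FPKM (log2 change -1.16, adjusted p = 0.0231). In a fit with a replicate block, 11 of the 35 were called lower.

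Cytoplasmic dynein 1, the motor of cell bodies and axons, is the non-ciliary relative of these motors. Of its 13 tested rows 9 fell (69.2%) and 1 rose, with a median of -0.74. The share that fell was larger than among the tested members (53.1%, median -1.05). Among all tested rows it was 27.2%. Dynlrb1, the paralog of Dynlrb2, measured 303, 257 and 366 FPKM in controls and 219, 161 and 174 FPKM in TNF libraries (log2 change -0.74, SE 0.21, adjusted p = 0.0324), against -2.84 for Dynlrb2, and the difference was not tested. Dynlt3 had a log2 change of -0.50 (adjusted p = 0.0335), and Dynll1 of -0.34 (adjusted p = 0.251). The count of falls in this list was 5 without TNF replicate 3, without TNF replicate 4 or without control replicate 1, and 2 with a replicate block. Its 1 riser, Dync1i1, an intermediate chain named after its values were seen, lost its call without either of these TNF replicates, without control replicate 1 and without control replicate 4.

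The list for the programme that commits cells to many cilia had 8 of 18 tested rows lower (44.4%, against 27.2% of all tested rows) and 0 higher (limma, 0 also at an unadjusted p below 0.05). Its median was -0.74. Cby1, a basal body protein, fell from 137, 106 and 205 FPKM to 30.5, 16.2 and 21.4 FPKM (log2 change -2.65, adjusted p = 0.00129). Tfdp1 and Cep63 were not called, nor were Myb, E2f4, E2f5, Trp73 and Gmnn, named after their values were seen. The transcription factors Rfx2 and Rfx3, named after their values were seen because RFX words were counted above, fell by 1.48 and 2.13 on the log2 scale (adjusted p = 0.0200 and 0.00209). Rfx3 measured 11.9, 9.29 and 5.37 FPKM in controls and 1.14, 1.30 and 1.06 FPKM in TNF libraries. Mcidas and Gmnc, the upstream switches of the programme, did not exceed 0.385 FPKM in any library and were not tested.

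Markers of other cell types also differed between the groups. Over all tested rows, 27.2% were called lower and 10.9% higher. Of the 14 tested markers of respiratory ciliated cells, 9 fell and 2 rose, and the summed level of the 16 listed was 1058 to 1378 FPKM in controls and 577 to 895 FPKM in TNF libraries. None of the 16 was at 0 throughout, none is a member, and 5 also stand in the list of other axoneme genes. The markers with the highest means were Sec14l3, which fell from 497, 475 and 249 FPKM to 116, 34.8 and 33.3 FPKM, and Tppp3. Sntn, a protein of the ciliary tip, was low, at 1.28 to 1.91 and 0.455 to 0.698 FPKM (log2 change -0.69, adjusted p = 0.0199). The part of ciliated cells in the members' fall was not tested.

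Neuron markers fell with larger medians. All 17 markers of mature olfactory neurons and all 11 of immature neurons were called lower, with medians of -3.92 and -4.81. The summed level of the mature list was 3815 to 7338 FPKM in controls and 53.2 to 1266 FPKM in TNF libraries, and of the immature list 4094 to 8564 and 355 to 524 FPKM. Stoml3, S100a5, Stmn1 and Gap43 led these lists in level, and Gap43, of growing axons, measured 458 to 1132 FPKM in controls and 0.151 to 11 FPKM in TNF libraries. The part of neuron RNA in the members' fall was not tested.

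On the log2(FPKM + 1) scale, the TNF libraries differed from each other more in mature neuron markers than in the members. TNF replicate 1 exceeded the mean of TNF replicates 3 and 4 by a median of 3.70 on the log2 scale over the 17 mature neuron markers, and by more than 1 in all 17. Over the 11 immature neuron markers the median excess was 1.05, and 6 exceeded 1. Over the 26 members that fell, the median excess was 0.34, and 4 of them (Rsph14, Dynlrb2, Tekt1 and Cfap58) exceeded 1. Over all tested rows it was 0.096. The added 1 flattens differences between values below 1 FPKM, so the excess is understated for members that low in TNF libraries. Cfap57, for example, had an excess of 0.55 with 0.919 FPKM in TNF replicate 1 and 0.249 and 0.370 FPKM in replicates 3 and 4. TNF replicate 1 was the highest TNF library in 16 of the 26 members that fell, and in 65.4% of all rows called lower. The median level of the tested members stood at -1.09, -1.05 and -1.18 relative to the control mean in TNF replicates 1, 3 and 4. In the same libraries the mature neuron list stood at -1.80, -5.20 and -5.19, and the immature list at -3.98, -5.01 and -5.04.

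Control replicate 4 was the highest of all 6 libraries in 22 of the 26 members that fell (84.6%), and in 70.0% of all rows called lower. It also had the highest medians of the neuron lists (0.56 and 0.50 above the control mean) and the lowest of the basal cell list (-0.87). Without control replicate 4 and TNF replicate 1 together, an alternative added after the data were seen, 34 member rows were tested, 18 were called lower and 6 higher, and the median was -0.65.

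Of the 11 horizontal basal cell markers, 4 rose and 0 fell (limma, 0 also at an unadjusted p below 0.05), and their sum was 769.7 to 3456 FPKM in controls and 4996 to 7711 FPKM in TNF libraries. Their most abundant row, Krt14 merged with Krt17, the gene of the sorted reporter, was not called (adjusted p = 0.0741). Markers of spermatids, which build a sperm axoneme from many of the same genes, summed to at most 0.829 FPKM, with Prm2, Tnp1, Tnp2, Spata3 and Pgk2 at 0 in every library. Of the remaining lists, globose basal cell markers had 3 of 8 lower and 1 higher, sustentacular markers 5 of 7 lower, microvillar markers 2 of 6 lower, Bowman gland markers 1 of 9 higher, and macrophage markers 4 of 8 lower and 1 higher. These counts stand beside 27.2% lower and 10.9% higher over all tested rows. The sustentacular gene Cyp2g1, whose promoter drives the activator, stood at 246 to 332 FPKM in controls and 26.5, 0.221 and 0.533 FPKM in TNF libraries. Of 10 housekeeping genes 0 were called (limma, 1 lower and 1 higher at an unadjusted p below 0.05).

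**Figure D4:**
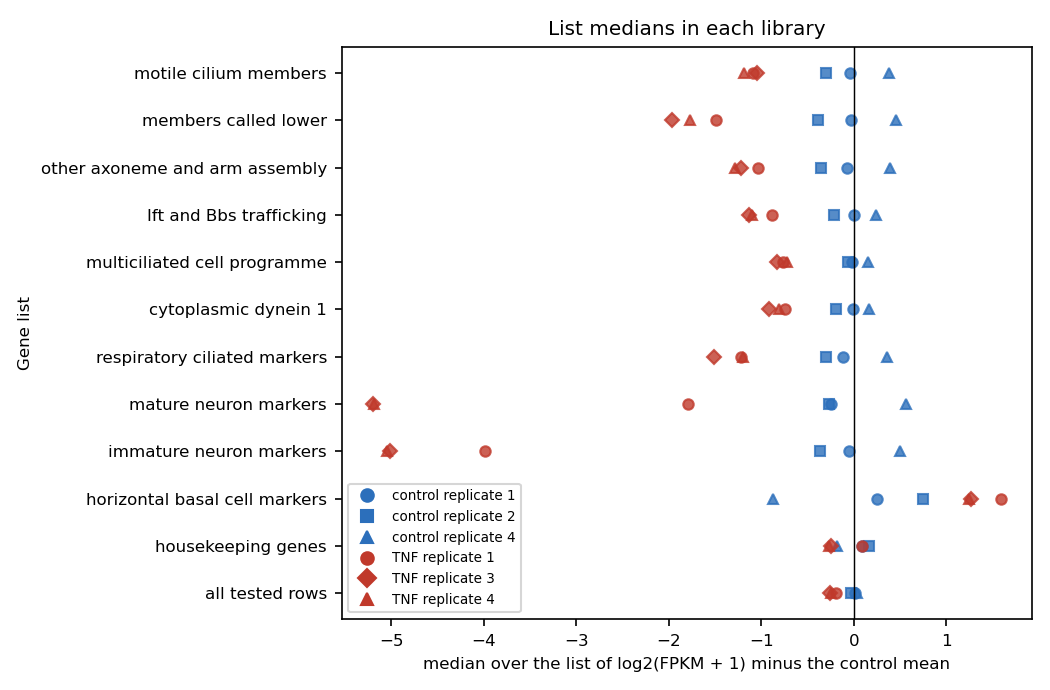
Median over each list of log2(FPKM + 1) minus the control mean (horizontal), for the tested members and for comparison lists (vertical), 1 point per library, with controls in blue and TNF libraries in red. The TNF libraries lie close together for the members, near -1.1, and apart for the mature neuron markers, from -1.80 to -5.20.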

How the data were processed

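The authors deposited 1 table of FPKM values, titled as raw counts, for 44519 rows and 6 libraries, with 0 columns of other samples. Of values above 0, 99.98% were not whole numbers (tolerance 1e-09), so the planned test on normalized values was used and no count model. Per the labels' protocols, Nextera libraries were made after SMARTer amplification of 5 ng of RNA. The build was mm10 and the tools were Cuffdiff 2.2.1, TopHat2 2.1.1, FastQC 0.10.1 and bcl2fastq, per the submitters' processing notes. The sources used here give no settings and no handling of strand, so reads of antisense and overlapping genes cannot be told apart. Read depth is unknown, and 1 fragment was worth 0.871 to 1.079 times its value in control replicate 1, as read from low values.

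The 15037 rows that reached 1 FPKM in 3 or more libraries were fitted on log2(FPKM + 1) in R 4.3.3 by limma 3.58.1, using its trend option, the 2 groups and no covariate. A pseudocount of 1 understates the change of low rows. P-values were adjusted over all 15037 rows by the Benjamini-Hochberg method. Tables and figures were made in Python 3.11.15 with matplotlib 3.10.9. Table positions are counted from 1 (mm10), and of 23036 rows unique in symbol and locus 75.1% matched the bounds of GENCODE M21.

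Alternatives were a pseudocount of 0.1, no filter, a filter of 5 FPKM, median-of-ratios, quantile and basal cell marker scaling, the replicate number as a block, and each library left out. Named genes were, per role, the 4 members of highest mean, the 8 largest falls and rises, every member called higher, the 3 genes of highest mean per pathway list, the 2 per marker list, and Krt5, Trp63, Tnf, Cyp2g1, Dynlrb1 and Omp. Exceptions are stated, and some marker genes are left out for length. Members and lists were chosen with earlier results of these data known.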

Additional observations from a re-analysis of the deposited data

How the results depend on the processing

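Of the 30 members called, 20 kept their call and direction under every one of the 14 alternatives in which they could be tested. The count of members called lower was 17 with a filter of 5 FPKM (29 rows tested) and 38 when scaled to basal cell markers, and that of members called higher was 2 with that scaling. It was 18 to 28 lower without 1 library. The median change of the members, -1.05, was -1.44 with the filter of 5 FPKM, -0.94 with median-of-ratios scaling, -0.50 without a filter, -1.45 with a pseudocount of 0.1, -0.60 with quantile normalization, -2.08 with basal cell marker scaling, -0.65 without the 2 least correlated libraries and -1.17 to -0.78 without 1 library. The median of all rows, -0.22, was -0.01 with median-of-ratios scaling, 0.05 with quantile normalization and -1.48 with basal cell marker scaling, and the share of calls that were lower moved from 71.4% to 58.6%, 51.9% and 97.5%.

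In the lists, Ift and Bbs falls numbered 34 with basal cell marker scaling. Cytoplasmic dynein 1 falls were 5 to 8 without 1 library, and its 1 rise was 0 with no filter, with basal cell marker scaling and without 1 of several libraries (0 to 1). Multiciliated programme falls were 4 with the filter of 5 FPKM, 4 with quantile normalization and 16 with basal cell marker scaling, and its rises were 1 with quantile normalization. Other axoneme genes had 6 rises with quantile normalization, 1 with basal cell marker scaling and 4 without the 2 least correlated libraries, and 23 to 36 falls without 1 library.

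The labels do not say what a shared replicate number marks, and deviations from the group means correlated at -0.06 for number 1 and -0.09 for number 4. With the replicate block, 21 members were lower and 3 higher, with a median of -1.14. Ift and Bbs falls were then 11, cytoplasmic dynein 1 falls 2 and rises 0, multiciliated programme falls 4, and other axoneme rises 1. The block also turned Dnaaf5 to -0.22, the second Spag9 row to -0.19 and Dnah11 to 0.068.

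Signs turned otherwise for uncalled members and for Spag16 and Cfap43. Quantile normalization gave 0.18 for Cfap54, 0.14 for Spag16, 0.055 for Spag1, 0.15 for Dnaic2, 0.0063 for Cfap52, 0.63 for Spag5 and 0.60 for Dnah11. Median-of-ratios scaling gave 0.018 for Spag9, 0.046 for Spag5, 0.091 for Dnah11 and 0.077 for Rsph3a. Basal cell marker scaling gave -1.23 for Dnaaf5, -0.082 for Cfap43, -0.29 for Cfap53, -1.35 for Spag7 (merged with Camta2) and -0.075 for the second Spag9 row. Without the 2 least correlated libraries Spag7 was at -0.089 and Spag5 at 0.17. Without 1 library the ranges were -0.13 to 0.27 for Dnaaf5, -0.036 to 0.12 for Spag7, -0.42 to 0.05 for Spag9, -0.25 to 0.14 for Spag5, -0.0053 to 0.70 for the second Spag9 row, -0.22 to 0.046 for Dnah11 and -0.34 to 0.049 for Rsph3a. The cause of these shifts was not tested. The unknown read depth limits what can be said of members below 1 FPKM.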
